A study of Mus musculus with 6 samples.

Results

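The genes described here are 10 genes of the roof plate, the cortical hem and the dorsal midline with its bone morphogenetic protein (BMP) signals: Lmx1a, Lmx1b, Msx1, Msx2, Bmp4, Bmp6, Bmp7, Gdf7, Id3 and Ttr. They were taken by name from a table of 55471 genes, 30928 of which had at least 1 count. RNA-seq read counts came from the rostral end of the mouse telencephalic primordium at E11.5, counted in days from the vaginal plug, in 3 control and 3 Rx-Dicer samples. Control embryos were DicerF/F, with both alleles of the miRNA-processing enzyme Dicer floxed (Dicer1tm1Bdh/J) and no Cre, although their genotype label reads WT. Rx-Dicer embryos were RxCre-DicerF/F, with the same floxed alleles and a Cre under Rax (Rx) regulatory sequences. The Rx3-Cre line was kept in a CD1 and the floxed line in a C57BL/6 background. By the reporter described in the study, this Cre was most active in rostral and ventral telencephalon at this age and less so in medial and caudal cortex, where the hem lies. Since no label tells whether pieces from separate embryos were pooled, p-values measure the spread between these samples only.

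The 6 libraries held 34471501 to 48373468 counts on genes. All had telencephalic markers, but in unequal regional shares. Emx2 of the dorsal telencephalon had 4997 to 9840 normalised counts and Emx1 921 to 5286, the lowest in the library labelled Rx-Dicer 2. Dlx2 of the ventral telencephalon had 717 to 4079, the highest in that same library. Of 10 telencephalic markers 1 was called higher (Six3) and 1 lower (Pax6), against 1.75% and 1.18% of genes tested. Dicer1 had 6355, 7070 and 6270 normalised counts in control libraries 1 to 3 and 4777, 7002 and 4644 in Rx-Dicer libraries 1 to 3. Counts per gene include exons outside the floxed segment and check the deletion only in part, but the library labelled Rx-Dicer 2 stood at the control level. Results were therefore also computed without that library. In Six3 and Pax6, which were called with it included, it lay with the other Rx-Dicer libraries. It had 3018 normalised counts of Six3 (684 to 1357 in controls) and 4749 of Pax6 (6726 to 7210 in controls). Its genotype was not tested further.

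The roof plate is the dorsal strip of the neural tube that secretes BMP and Wnt proteins and so patterns the tissue beside it. In the telencephalon its continuation is the choroid plaque, and the adjoining edge of the cortex is the hem, a source of Wnt ligands. BMP ligands bind paired type I and type II receptors, which phosphorylate SMAD1, SMAD5 and SMAD9. With SMAD4 these switch on genes such as the Id family and the Msx homeobox genes. Extracellular proteins such as Noggin hold the ligands back. Several of these genes are also active outside the brain, in head mesenchyme, surface ectoderm and the eye.

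Because the study removed Dicer and centres on let-7, the annotated 3′ UTRs of the members were searched for the seed matches of 5 miRNAs: let-7a, miR-9, miR-17, miR-92a and miR-135a. Of the 10 members, 9 had an annotated 3′ UTR of at least 30 bases (GENCODE, GRCm38). None of the 9 held an 8-base site, the seed match followed by A, for any of the 5. The 7-base let-7 match CTACCTC stood in 2 of the 9, against 9.06% of 20717 genes. Both carriers are the LIM homeobox paralogs Lmx1a and Lmx1b. The 7-base miR-135a match AAGCCAT stood in 1 of the 9, Msx2, against 13.1% of genes. The mature miRNAs (RefSeq, GRCm38.p6) are shown 5′ to 3′ with seed bases 2 to 8 in capitals, and the sites, on the transcript strand, with the match in capitals.
let-7a-5p: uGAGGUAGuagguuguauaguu
Lmx1a, first site: gatagccacacCTACCTCtctctctatga
Lmx1a, second site: ggttgccacacCTACCTCcctggggacaa
Lmx1b site: gcgagcagggcCTACCTCtaagagcaatt
miR-135a-5p: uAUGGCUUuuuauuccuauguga
Msx2 site: ggcagatggagAAGCCATgtgcttgagtt
The Lmx1a matches lie at 167847655 to 167847661 and 167847697 to 167847703 of chromosome 1 (plus strand). The Lmx1b match lies at 33563785 to 33563791 of chromosome 2 (minus strand), and the Msx2 match at 53467063 to 53467069 of chromosome 13 (minus strand). A match is a stretch of letters and was not tested as a working site.

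None of the members was called different between genotypes. A gene was called at a DESeq2 adjusted p under 0.05 with a change of over 25%, and 8 members had an adjusted p, Gdf7 and Ttr being too low for one. DESeq2 called 0 of the 8, against 2.93% of 17128 genes tested. At an unadjusted p under 0.05 there were 0 as well, against 13.1% of genes tested. edgeR's quasi-likelihood test likewise gave 0 of 10 at either level, with 0.0446% of genes called and 12.9% at an unadjusted p under 0.05. All 8 had a positive log2 fold change (Rx-Dicer over control), with a median of 0.36 against -0.00087 over all genes tested. Outside the 8, Ttr was positive and Gdf7 negative. In none of them did the genotypes separate, whereas the groups did not overlap in 19.3% of genes tested. The count of members called was also 0 with other scaling (TMM 3% of genes called, total counts 3.18%), with a low-count filter (3.78%), without independent filtering (1.04%), from either file alone (2.63% and 2.68%) and at an adjusted p under 0.1 (4.32%). It was 0 in 5 of the 6 fits that left out a library: those without control 2 (1.53% of genes called), control 3 (2.17%), Rx-Dicer 1 (4.22%), the library labelled Rx-Dicer 2 (3.77%) and Rx-Dicer 3 (2.20%). The fit without control 1, with 3.49% of genes called and 2.49% called higher, was the exception: it called Bmp6 and Bmp7 higher. A model with the replicate number as a block, which called 1.83% of genes, called 2 as well, Bmp7 and Id3. Whether the numbers pair the samples is not known.

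**Figure D1:**
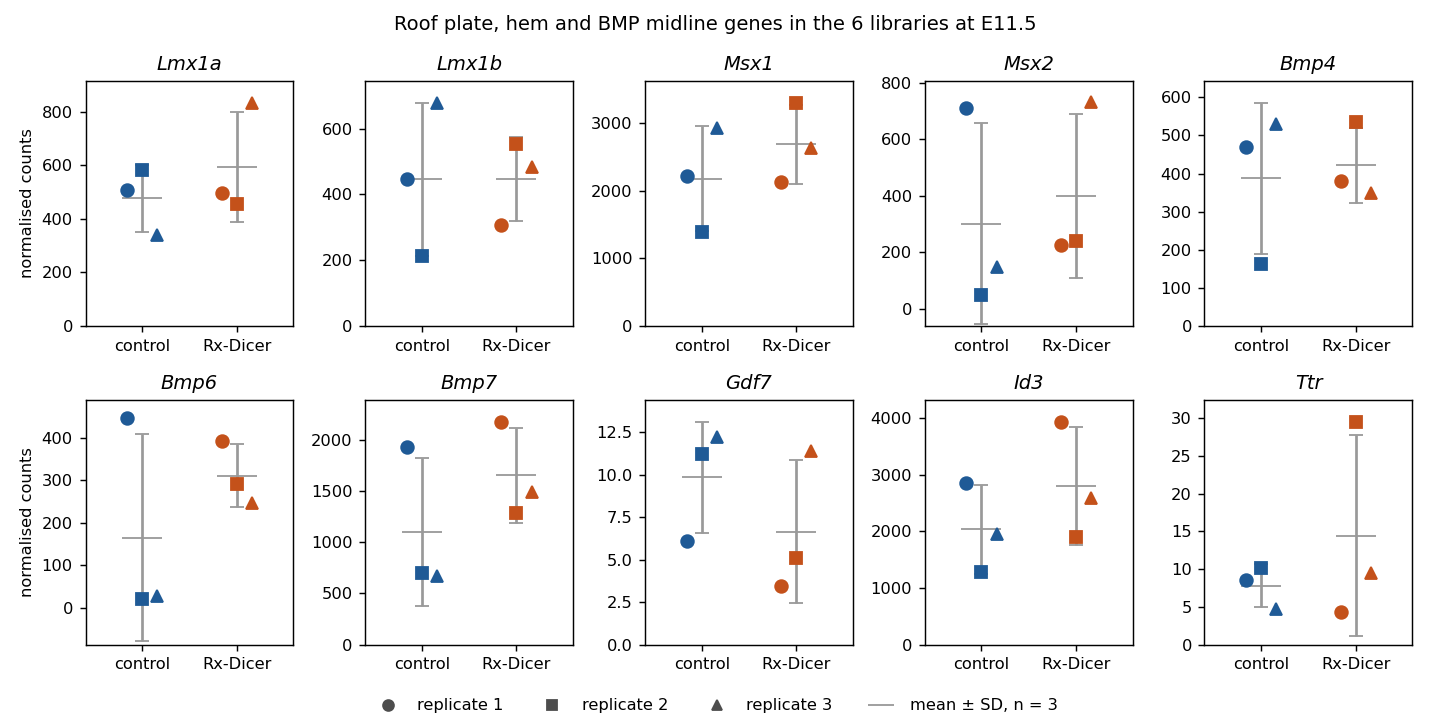
Normalised counts (y axis, linear, 1 panel per gene) of the 10 genes in control (blue) and Rx-Dicer (orange) libraries, with symbols for the replicate number and grey bars for mean ± SD (n = 3). The genotypes overlap in every panel, and in Bmp6 control 1 stands at 446 while the other controls are at 21.4 and 26.3.

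Levels of different genes were compared per length, in TPM, read counts divided by the length of all annotated exons and scaled to 1 total in every library. In control libraries Id3 was highest at 69.6 ± 26.5 TPM (SD, n = 3), followed by Msx1 at 43.4 ± 16.7 and Bmp7 at 16.7 ± 10.7. Bmp4 stood at 10.6 ± 5.59 TPM, Lmx1a at 8.56 ± 2.02, Lmx1b at 5.66 ± 3.10 and Msx2 at 5.57 ± 6.52. Bmp6 reached 2.55 ± 3.76 TPM, and Gdf7 and Ttr stood lowest at 0.43 ± 0.15 and 0.40 ± 0.14. Each gene's control range overlapped that of the next gene in this order. Within each control library, though, Id3 stood above Msx1, Msx1 above Bmp7 and Msx2 above Bmp6. The other neighbours changed order between control libraries.

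The transcription factors came first. Lmx1a (ENSMUSG00000026686, GRCm38 chromosome 1, 167689237 to 167848741) is needed to form the roof plate and marks hem and choroid plaque. It had 508, 582 and 339 normalised counts in control libraries 1 to 3 and 496, 455 and 831 in Rx-Dicer libraries 1 to 3. Rx-Dicer 3 was highest and control 3 lowest, and the other 4 libraries lay close together. The log2 fold change was 0.32 ± 0.26 (SE; 95% interval -0.19 to 0.83; DESeq2 adjusted p = 0.714), and it was -0.00079 without Rx-Dicer 3. Its paralog Lmx1b (ENSMUSG00000038765, chromosome 2, 33560965 to 33640511) acts in the isthmus, the limb and the tissue around the eye. It had 446, 214 and 676 normalised counts in controls and 306, 553 and 482 in Rx-Dicer libraries. All Rx-Dicer values fell inside the control range, with a log2 fold change of 0.0052 ± 0.52 (95% interval -1.01 to 1.02). Neither carrier of a let-7 match was called, and the Lmx1b interval is wide enough to hold a 2-fold change in either direction.

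Msx1 and Msx2 encode homeobox repressors that BMP signals switch on in the dorsal midline, in cranial mesenchyme and in ectoderm. Msx1 (ENSMUSG00000048450, chromosome 5, 37820485 to 37824583) had 2216, 1383 and 2930 normalised counts in controls and 2132, 3290 and 2623 in Rx-Dicer libraries. Control 2 stood below the other 5 libraries. Its log2 fold change was 0.30 ± 0.24 (95% interval -0.17 to 0.77; DESeq2 adjusted p = 0.700). Msx2 (ENSMUSG00000021469, chromosome 13, 53466884 to 53473074) had 708, 46.9 and 147 normalised counts in controls and 225, 238 and 732 in Rx-Dicer libraries. A single library of each genotype, control 1 and Rx-Dicer 3, was high. The log2 fold change of 0.41 ± 1.12 (95% interval -1.79 to 2.60) had no stable sign: it was -0.37 without Rx-Dicer 3, -0.10 without control 2 and 2.04 without control 1, none of them called.

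Among the ligands, Bmp4 and Bmp7 are dorsal midline BMPs that are also made in head mesenchyme and ectoderm, while Bmp6 and Gdf7 belong more to roof plate and hem. Bmp4 (ENSMUSG00000021835, chromosome 14, 46383520 to 46390669) had 470, 162 and 529 normalised counts in controls and 381, 534 and 349 in Rx-Dicer libraries. Control 2 was again the low library, and the other 5 overlapped. The log2 fold change was 0.12 ± 0.34 (95% interval -0.54 to 0.78; DESeq2 adjusted p = 0.960).

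Bmp6 (ENSMUSG00000039004, chromosome 13, 38345107 to 38500302) varied most. It had 446, 21.4 and 26.3 normalised counts in control libraries 1 to 3, from 365, 21 and 28 reads, and 392, 292 and 247 in Rx-Dicer libraries. Control 1 was the highest of all 6 libraries and the other controls were far below every Rx-Dicer library. Over all libraries the means were 165 ± 244 and 311 ± 74.1 (SD, n = 3 each), with a log2 fold change of 0.92 ± 1.27 (SE; 95% interval -1.57 to 3.40; DESeq2 adjusted p = 0.883). Without control 1 the log2 fold change was 3.70 ± 0.35, or 13.0-fold, and Bmp6 was called higher (DESeq2 adjusted p = 2.12e-23; edgeR quasi-likelihood adjusted p = 0.0211). With edgeR, 0.107% of genes were called without control 1. Both fits had 2 controls and left out the highest of all 6 libraries, so their calls give no independent support for a difference. The edgeR fit was chosen after the data were seen.

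Bmp7 (ENSMUSG00000008999, chromosome 2, 172868012 to 172940321) also had control 1 apart from the other controls, by less. It had 1938, 697 and 671 normalised counts in controls and 2183, 1291 and 1498 in Rx-Dicer libraries. Control 1 lay among the Rx-Dicer libraries, and the other controls below them. The log2 fold change was 0.59 ± 0.53 (95% interval -0.46 to 1.63; DESeq2 adjusted p = 0.767). It became 1.28 ± 0.24 without control 1, called by DESeq2 (adjusted p = 2.03e-05) and not by edgeR's quasi-likelihood test (adjusted p = 0.118). These fits too had 2 controls and left out the highest control. Gdf7 (ENSMUSG00000037660, chromosome 12, 8297918 to 8301954), the roof plate ligand that specifies the most dorsal interneurons of the spinal cord, was close to the detection floor. It had 5, 11 and 13 reads in control and 4, 5 and 12 in Rx-Dicer libraries, where 3 counts is the floor. Its log2 fold change was -0.58 ± 0.88 (95% interval -2.31 to 1.15; edgeR quasi-likelihood adjusted p = 0.731), the only negative value among the 10 members.

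Id3 (ENSMUSG00000007872, chromosome 4, 136143497 to 136145755), an inhibitor of basic helix-loop-helix factors that SMADs switch on directly, was the most abundant member per length. It had 2859, 1282 and 1955 normalised counts in controls and 3935, 1893 and 2588 in Rx-Dicer libraries. Rx-Dicer 1 was highest and control 2 lowest. The log2 fold change was 0.47 ± 0.45 (95% interval -0.41 to 1.34; DESeq2 adjusted p = 0.789), and no fit that left out a library called it. Ttr (ENSMUSG00000061808) encodes transthyretin, the carrier of thyroid hormone that differentiated choroid plexus makes in very large amounts. It had 7, 10 and 5 reads in control and 5, 29 and 10 in Rx-Dicer libraries. The 29 reads of the library labelled Rx-Dicer 2 set the sign of its log2 fold change, which was 0.88 ± 0.88 with that library and -0.18 without it. Yolk sac and liver also make Ttr. Their 10 marker genes, with 0 called, summed to 454, 386 and 369 normalised counts in controls and to 541, 401 and 360 in Rx-Dicer libraries, most of it Trf (280 to 466). Alb had 0 to 2.04, Afp 0.86 to 25.7 and Fga 0, and their part in the Ttr values was not tested.

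**Figure D2:**
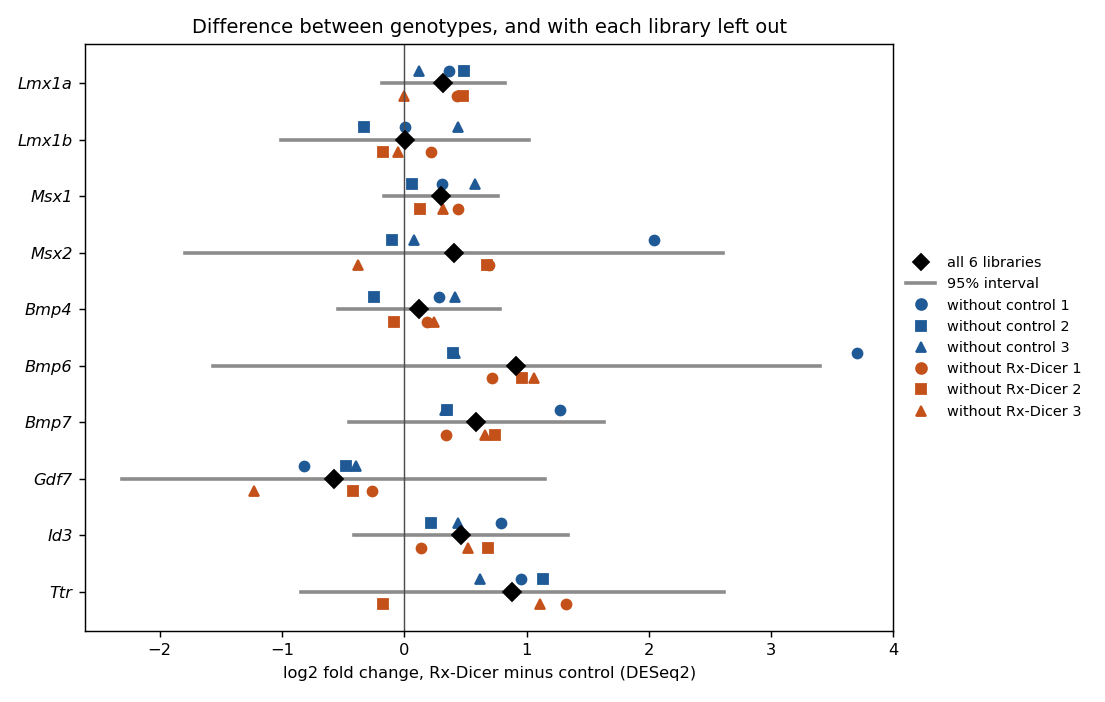
Log2 fold change of each gene, Rx-Dicer over control (x axis), from all 6 libraries (black diamond) with its 95% interval (grey line) and from fits that each left out 1 library (coloured symbols). Every interval contains 0, and the fit without control 1 moves Bmp6 from 0.92 to 3.70 and Bmp7 from 0.59 to 1.28.

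The spread among controls was wide for these genes. The highest control library was 20.8 times the lowest for Bmp6 and 15.1 times for Msx2, while the median over 17095 tested genes with counts in every library was 1.23. Only 0.263% of genes spread as widely as Bmp6 and 0.386% as widely as Msx2. Among Rx-Dicer libraries the same ratios were 1.59 and 3.26, against a median of 1.28. The other 6 tested members had control ratios from 1.71 (Lmx1a) to 3.27 (Bmp4), all above the median. Their Rx-Dicer ratios, from 1.53 (Bmp4) to 2.08 (Id3), were all above the Rx-Dicer median too. Lmx1a spread slightly more among Rx-Dicer libraries (1.82) than among controls. In bulk tissue fewer cells of a type and less RNA per cell cannot be told apart.

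**Figure D3:**
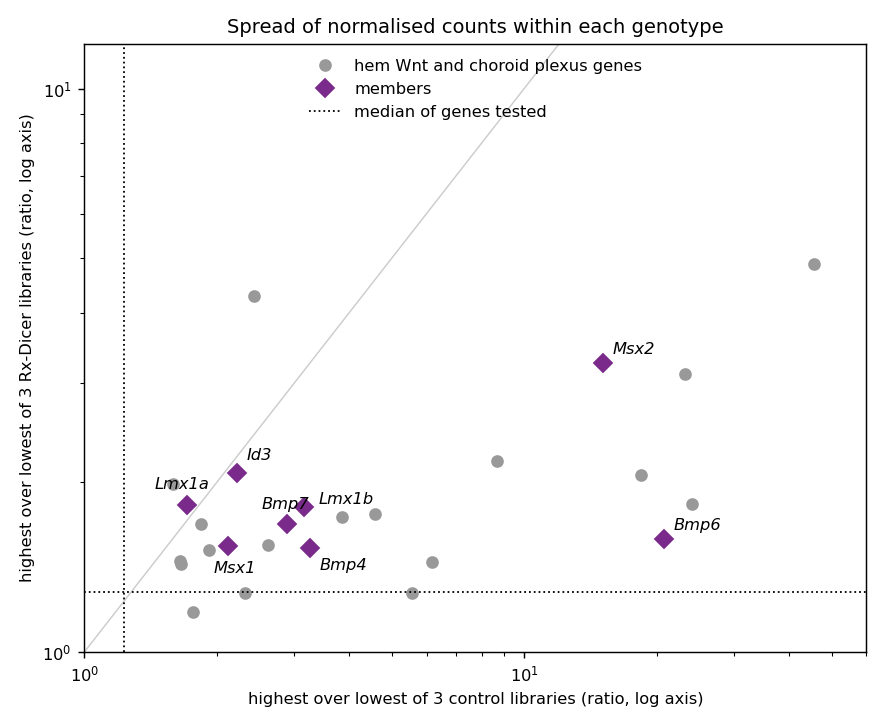
Ratio of the highest to the lowest of the 3 control libraries (x axis, log scale) against the same ratio in Rx-Dicer libraries (y axis, log scale), for the 8 tested members (diamonds) and 18 tested hem Wnt and choroid plexus genes (grey points). Dotted lines are medians over tested genes, 1.23 and 1.28. Bmp6 and Msx2 lie far to the right, among hem and choroid plexus genes.

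The library profile of Bmp6 had close counterparts. By root mean square difference of mean-centred log2 normalised counts over the 6 libraries, the nearest of 12708 protein-coding genes was Fgf17, at 0.18. Fgf17 encodes a growth factor of the rostral midline and had 4720, 256 and 358 normalised counts in controls and 4558, 2547 and 2612 in Rx-Dicer libraries. Next came Gmnc (0.42) and Ccno (0.52), which act in the programme for multiple cilia that choroid plexus cells use. As for Bmp6, control 1 was the highest library for Fgf17 and the other controls were the lowest. Msx2 had less close counterparts, Gpr17 (0.54), Dbx1 (0.63) and Sema3c (0.64).

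Hem Wnt genes were set beside the members. Of 8 genes on the list (Wnt ligands, R-spondins, which enhance Wnt signals, and the receptor gene Fzd10), 0 were called and 7 had an adjusted p, with a median log2 fold change of 0.15. One of these, Wnt5a, had an unadjusted p under 0.05 (DESeq2 adjusted p = 0.136), with 848, 549 and 970 normalised counts in controls and 1194, 1218 and 1031 in Rx-Dicer libraries. It was the 1 gene of the 7 whose groups did not overlap, against 19.3% of genes tested. Wnt3a, a defining ligand of the hem, had 519, 1.02 and 23.5 normalised counts in controls and 543, 261 and 231 in Rx-Dicer libraries, and DESeq2 gave it no p because of its outlying value. Rspo2 had 1209, 26.5 and 121 against 886, 421 and 182. Rspo3 had 1852, 225 and 77.0 against 996, 775 and 544. Wnt8b, which also marks the medial cortex around the hem, had 5897, 1842 and 320 against 5582, 2712 and 3575. In all 4 genes control 1 was the highest control, as in Bmp6. For Wnt5a and for Wnt2b (100, 61.1 and 117 in controls) control 3 was the highest control. Rspo1, the most abundant gene of the list per length (78.7 TPM over the 6 libraries), had 4483, 1692 and 1165 against 3232, 1861 and 2435.

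**Figure D4:**
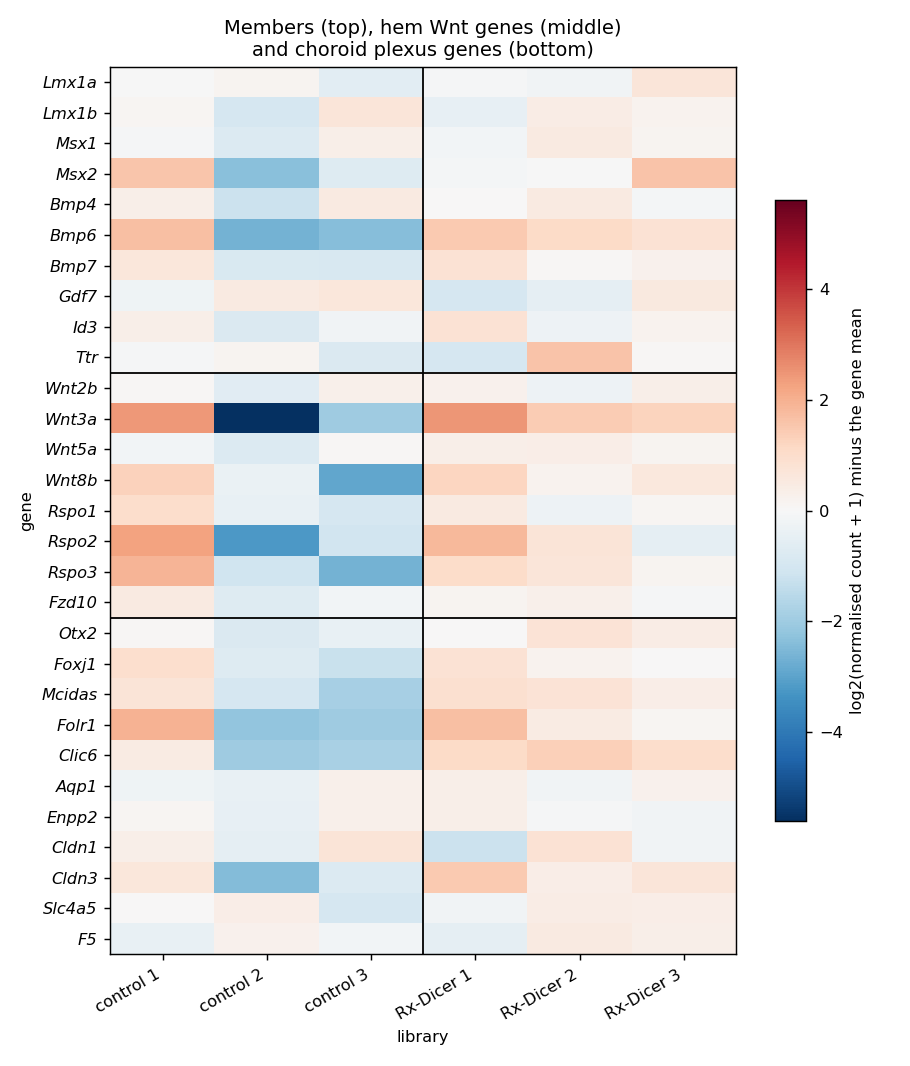
Log2(normalised count + 1) of each gene minus its own mean over the 6 libraries (colour), for the members, the hem Wnt genes and the choroid plexus genes with a mean of at least 20 normalised counts. Bmp6, Wnt3a, Rspo2, Rspo3 and Folr1 are red in control 1 and blue in controls 2 and 3.

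Some genes of choroid plexus development showed a part of this pattern and others did not. Of 18 genes, 11 had an adjusted p and 1 was called higher, against 1.75% of genes tested. It was Otx2, a homeobox gene of choroid plexus and of the brain caudal and ventral to the cortex. Otx2 had 2802, 1523 and 1997 normalised counts in controls and 2701, 4564 and 3561 in Rx-Dicer libraries, so the genotypes overlapped. Its log2 fold change was 0.78 ± 0.23 (DESeq2 adjusted p = 0.0311; edgeR quasi-likelihood adjusted p = 0.262). Markers of ventral tissue were read beside it. Six3 was called, with 1357, 684 and 1048 normalised counts in controls and 2177, 3018 and 2247 in Rx-Dicer libraries. Shh was called as well, with 18.3, 33.6 and 47.9 against 112, 570 and 201. It was the 1 gene called higher of 10 on the list for ventral diencephalon and floor plate, against 1.75% of genes tested. Nkx2-1 had 3.66, 51.9 and 192 against 682, 1882 and 1307 (DESeq2 adjusted p = 0.0549). The other ventral markers went in both directions. Of the 6 genes of the ventral diencephalon and floor plate list with an adjusted p, 2 had a positive log2 fold change. These were Shh and Sim1 (0.92, DESeq2 adjusted p = 0.355), and the median of the 6 was -0.32. Dlx2 and Gsx2 of the ventral telencephalon had log2 fold changes of 0.04 and -0.18. In Six3, Shh, Nkx2-1 and Otx2 the library labelled Rx-Dicer 2 was highest, and the part of ventral tissue in the Otx2 values was not tested. For Otx2 the DESeq2 adjusted p was 0.343 without control 2, 0.188 without control 3, 0.279 without the library labelled Rx-Dicer 2 and 0.158 without Rx-Dicer 3. Foxj1, a regulator of motile cilia, had 1225, 395 and 267 normalised counts in controls and 1147, 738 and 653 in Rx-Dicer libraries. Mcidas, a regulator of multiciliated cells, had 209, 65.2 and 33.8 against 232, 213 and 161. In both, control 1 lay among or above the Rx-Dicer libraries and the other controls below them. Among channel genes of the list, Kcne2 had 1 read over all libraries and Kcnj13 had 0. The water channel gene Aqp1 had 197, 171 and 282 normalised counts in controls and 291, 201 and 276 in Rx-Dicer libraries. Unlike in Foxj1 and Mcidas, control 3 was the highest control for Aqp1, Enpp2 and Cldn1, and control 2 for Slc4a5 and F5. Clic6 had 386, 69.3 and 78.0 normalised counts in controls and 599, 703 and 551 in Rx-Dicer libraries, so here control 1 lay below every Rx-Dicer library. Its log2 fold change was 1.80 ± 0.80 (DESeq2 adjusted p = 0.269). It was the 1 gene of 11 with an adjusted p whose groups did not overlap, against 19.3% of genes tested.

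Over both lists, 8 of 18 genes with an adjusted p and counts in every library spread over 4-fold among controls, against 2.66% of genes, and 2 of 18 did among Rx-Dicer libraries, against 2.59%. Control 1 was the highest control for 11 of the 18, against 35.7% of genes. Without control 1, DESeq2 called 8 of the 26 listed genes higher (Otx2, Foxj1, Mcidas, Folr1, Clic6, Cldn3, Wnt3a and Rspo3) instead of 1, against 2.49% of genes called higher. edgeR without control 1 called 1 of the 26, Clic6. Both fits had 2 control libraries as their reference.

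The rest of the BMP pathway gave few calls. Of 41 other genes, 36 had an adjusted p, with a median log2 fold change of 0.09. Of these 0 were called higher, against 1.75% of genes tested, and 1 lower, against 1.18%. Of 13 receptor and SMAD genes 0 were called, with a median of 0.04. Smad4, the shared partner SMAD, had 5219 to 5388 normalised counts in controls and 5124 to 5212 in Rx-Dicer libraries. Bmpr1a, a type I receptor gene, had 6421 to 6586 and 6645 to 7263. Both separated the genotypes without passing the test, with log2 fold changes of -0.03 (DESeq2 adjusted p = 0.963) and 0.10 (adjusted p = 0.810). Of the 36 genes, 4 separated the genotypes with higher Rx-Dicer values, against 8.55% of genes tested, and 1 with lower values, against 10.7%. Besides Smad4 and Bmpr1a these were Rgma, Smad7 and Twsg1.

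Of 15 inhibitor genes 0 were called, and the median was 0.15. Smad7, an inhibitory SMAD that the pathway itself switches on, had 631, 520 and 602 normalised counts in controls and 831, 720 and 765 in Rx-Dicer libraries. All Rx-Dicer values were higher, and its log2 fold change of 0.40 ± 0.15 did not pass (DESeq2 adjusted p = 0.132). Twsg1, a modulator of BMP binding to its antagonists, was separated too (0.28; adjusted p = 0.169), and Nog, which encodes Noggin, was not (-0.22; adjusted p = 0.759). Of the other target genes (Id1, Id2, Id4, Atoh8) 0 of 4 were called, with a median of -0.22. Id4, the most abundant at 316 TPM over the 6 libraries, had a log2 fold change of -0.16 (DESeq2 adjusted p = 0.846) and Id2 one of -0.35 (adjusted p = 0.456). Id1 had 0.19 (adjusted p = 0.866), with the sign of Id3.

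Other BMP ligands were low. Bmp5, the most abundant of the 9 at 4.13 TPM, had 374, 85.6 and 73.3 normalised counts in controls and 440, 348 and 282 in Rx-Dicer libraries, with control 1 above the other controls as in Bmp6. Its log2 fold change was 1.01 ± 0.76 (DESeq2 adjusted p = 0.671). Without control 1, with 2 controls left, it was 2.17 and called by DESeq2 (adjusted p = 5.51e-12). edgeR's quasi-likelihood test did not call it in that setting (adjusted p = 0.0575). Gdf5, a ligand of developing joints, had 63.5, 22.4 and 14.1 against 84.9, 53.0 and 41.8 (0.86 ± 0.55; DESeq2 adjusted p = 0.558). Gdf6, a ligand of dorsal ectoderm and eye, was the lower call, with 48, 5 and 22 reads in control and 6, 0 and 3 in Rx-Dicer libraries (log2 fold change -3.36 ± 1.02; DESeq2 adjusted p = 0.0400). DESeq2 also called it with the replicate block and without control 2, and not without independent filtering (adjusted p = 0.0723) or without the library labelled Rx-Dicer 2 (adjusted p = 0.160). The other refits gave it no adjusted p or left it out for low counts.

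Markers of other tissues varied between libraries too. Head mesenchyme genes, 14 in all with 0 called, summed to 56378, 39561 and 88985 normalised counts in controls and to 77738, 62400 and 60937 in Rx-Dicer libraries. Control 2 was lowest and control 3 highest, as in the controls for Msx1, Lmx1b and Bmp4, but Rx-Dicer 1, the highest Rx-Dicer library here, was the lowest for Msx1 and Lmx1b. Of 11 surface ectoderm genes 1 was called lower, against 1.18% of genes tested, and the median log2 fold change was -1.30. The 11 summed to 3537, 595 and 1863 in controls and to 1905, 880 and 1120 in Rx-Dicer libraries. The order of controls was that of Msx2, while among Rx-Dicer libraries the first was highest here and lowest for Msx2. Optic field and pigment epithelium genes, 8 in all with 0 called, summed to 1068, 948 and 520 against 987, 253 and 936. Most of that was Dct, at 68.3 to 817 normalised counts, except in the library labelled Rx-Dicer 2, where Mitf had 136 and Dct 68.3. Tyr, which also serves pigment synthesis, had 0 to 8.45. Of 9 microglial genes 2 were called higher, against 1.75% of genes tested, and the median log2 fold change was 1.07. At an unadjusted DESeq2 p under 0.05 there were 8 of the 9, against 13.1% of genes tested. The 9 summed to 1981, 1603 and 1883 in controls and to 5704, 1884 and 3650 in Rx-Dicer libraries. No mesenchyme or ectoderm gene of these lists was at 0 in all libraries. The part of these tissues in the members' values was not tested.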

How the data were processed

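RNA was sequenced from 3 control and 3 Rx-Dicer samples with a directional kit as read pairs. The authors deposited raw read counts per Ensembl gene, 2 files per sample, made with Trim Galore 0.6.5, HISAT2 on GRCm38.p6 and HTSeq 0.12.4 in union mode on the reverse strand, per the labels and methods. Reads that fit several places or genes were not counted for a gene. The files of a sample agreed (chi-square per degree of freedom 1.13 to 1.52 between them) and were summed, so n was 3. Reads in no gene were 8.15 to 13.2% of those assigned, ambiguous or in no gene, and stayed out of library sizes.

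Genotypes were compared over all genes with DESeq2 1.42.0 in R 4.3.3 (Wald test, size factors, no covariate). P-values were Benjamini-Hochberg adjusted after independent filtering, and a gene was called at a change of over 25% with an adjusted p under 0.05. edgeR's quasi-likelihood test (edgeR 4.0.16; TMM factors, at least 10 counts in at least 3 samples) was the first alternative. Both were tested on simulated counts for this comparison (30928 genes, 200 of them changed 2-fold, 3 draws): the median share recovered was 85.5% with DESeq2 and 74.5% with edgeR, and 23.5% and 7.51% of the calls were wrong. The changed genes were drawn only from genes with higher counts, so the recovered shares do not cover genes as low as Gdf7, Ttr and Gdf6. The floor of 3 counts was 0.0620 to 0.0870 CPM, for counting error only.

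The members and all gene lists were chosen with earlier results of these data known, and no list was tested as a set. Named genes were the members, Dicer1, of each list the called genes and the 2 highest per length, and the 3 genes nearest in profile to members whose log2 counts spanned over 2. Nearest genes of Ttr are left out, since they rest on few reads. Other named genes were chosen after their values were seen. Exon lengths and 3′ UTRs came from GENCODE M21 (GRCm38), with the longest UTR per gene.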

Additional observations from a re-analysis of the deposited data

How the results depend on the processing

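The same-numbered samples are different animals, and the paper compared mutants with control littermates. Deviations of the same-numbered samples from the group means correlated at 0.29, -0.01 and -0.26. With 3 samples per group this cannot settle whether the numbers pair them. With the replicate number as a block, 2 members were called (Bmp7 at 0.74, adjusted p = 0.0347, and Id3 at 0.48, adjusted p = 0.0292; 1.83% of genes were called), 2 other BMP pathway genes (Bmp5 and Gdf6) and 1 hem or choroid plexus gene (Cldn3). The fits that each left out a library called 0 to 2 members, 0 to 2 other BMP pathway genes and 0 to 8 hem or choroid plexus genes, the highest counts for members and for hem and choroid plexus genes being those without control 1. edgeR without control 1, chosen after the data were seen, called 1 member (Bmp6), 0 other BMP pathway genes and 1 hem or choroid plexus gene (Clic6). For those pathway genes, against 1, the count was 0 with edgeR, TMM or total-count scaling, a low-count filter, no independent filtering, or either file alone; apart from the unfiltered fit, Gdf6 then had no adjusted p or was not tested. For hem and choroid plexus genes, against 1, it was 0 with edgeR and without independent filtering. An adjusted p under 0.1 or no fold minimum moved none of these 3 counts. Of 170 member values under alternatives, 155 kept their sign and side of the threshold, 5 passed it and 10 changed sign, none of these called. The alternatives that changed only the independent filtering or a threshold kept the main fold changes, so their signs could not change. Over the fits that each left out a library, Lmx1a ran from -0.00079 to 0.49, Lmx1b from -0.33 to 0.44, Msx2 from -0.37 to 2.04, Bmp4 from -0.25 to 0.42 and Ttr from -0.18 to 1.32. The negative values came without control 2 (Lmx1b, Msx2, Bmp4), the library labelled Rx-Dicer 2 (Lmx1b, Bmp4, Ttr) or Rx-Dicer 3 (Lmx1a, Lmx1b, Msx2). Lmx1b was at -0.019 from the second file alone. The cause was not tested.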

Other observations

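Genes of the roof plate caudal to the telencephalon lie outside the comparisons above. Wnt1, a ligand of the midbrain roof plate and isthmus, had 2, 0 and 0 reads in control libraries and 140, 1 and 107 in Rx-Dicer libraries, so 2 of the 3 Rx-Dicer libraries held it. DESeq2 gave it an adjusted p of 0.0841, and it fell below edgeR's count filter. Pax3, a dorsal neural tube and neural crest factor, had 121, 35.6 and 132 normalised counts in controls and 377, 368 and 143 in Rx-Dicer libraries (log2 fold change 1.62 ± 0.68; DESeq2 adjusted p = 0.211). Msx3, the Msx paralog of the caudal dorsal neural tube, had 37.9, 42.8 and 21.6 against 92.6, 60.1 and 63.7 (1.09 ± 0.40; adjusted p = 0.128). For Pax3 and Msx3 all 3 Rx-Dicer values lay above the 3 controls, and neither passed the test. The rest of the list did not follow them. Pax7 had 138, 78.4 and 398 normalised counts in controls and 586, 231 and 89.4 in Rx-Dicer libraries, so the groups overlapped. Olig3 (0 to 7 reads) and Atoh1 (0 to 6 reads) had negative log2 fold changes, -1.47 and -0.85. Of the 6 genes on this list 0 were called, and 2 of the 4 with an adjusted p did not overlap between groups, against 19.3% of genes.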
